A study of Mus musculus with 3008 samples.

Results

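Lamins, proteins of the nuclear envelope and the intermediate filament protein vimentin are described here in single Foxp3+ regulatory T cells (Tregs) of the mouse colon and spleen. The members are the genes Lmna, Lmnb1, Lmnb2, Lbr, Emd, Sun1, Sun2 and Vim, 8 of the 23725 genes in the count table. They were chosen by name with the colon to spleen difference of these libraries known, so the ratios between the tissues are a description and no test was run on them. The donors were male B6 mice aged 7 months that carried a Foxp3-Ires-Gfp reporter, and the sort kept cells that were GFP+, CD4+ and TCRb+ and excluded the dye DAPI, a sign of an intact membrane. The lamina propria of the colon, the tissue layer beneath its epithelium, gave 2 libraries, named colon 1 and colon 2, with 20.6% and 58.9% of the 3008 cells. The spleen gave 1 library with 20.5% of the cells. Colon tissue was digested with collagenase and dispase while spleen was dissociated mechanically, so tissue and dissociation cannot be told apart.

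Lamins are intermediate filament proteins that form a mesh, the lamina, under the inner nuclear membrane. B-type lamins (Lmnb1, Lmnb2) are made by nearly all cells, whereas A-type lamins (Lmna, spliced into lamin A and lamin C) vary strongly between tissues and stiffen the nucleus. In T cells, A-type lamins are low in resting cells and are induced on activation. The lamina is held to the membrane by the lamin B receptor (Lbr) and emerin (Emd), and it is coupled to the cytoskeleton by Sun1 and Sun2, the inner subunits of the LINC complex. Vimentin (Vim) forms the cytoplasmic filaments that surround the nucleus of mesenchymal cells and leukocytes.

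In build GRCm38 (mm10), the GENCODE vM21 annotation places Lmna on chromosome 3 from 88480147 to 88509956 on the minus strand. Its protein-coding transcripts number 4, with a different 3′ end each, and include those of lamin A and lamin C. The table holds 1 count per gene, so lamin A and lamin C cannot be told apart. Vim lies on chromosome 2 from 13573927 to 13582826 on the plus strand, Emd on chromosome X from 74254687 to 74261548 on the plus strand, and Sun2 on chromosome 15 from 79724070 to 79742536 on the minus strand. Lmna, Lmnb1, Lmnb2 and Vim overlap no other annotated gene. Emd overlaps the processed pseudogene Gm14686 on the same strand, Lbr overlaps Dnah14 on the opposite strand and the rRNA gene Gm26004 on its own, and Sun1 and Sun2 each overlap an antisense gene. Whether the counting used strand is not given in the sources used here, so reads of these overlapping stretches are uncertain.

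The RefSeq promoter table of GRCm38.p6 held 10 start sites for 7 of the 8 members. The windows of Lmna, Vim and Emd, whose transcripts were higher in colon, are shown beside that of Sun2, whose level was similar in both tissues. Each runs from 250 bases before to 50 bases after a start site, 5′ to 3′ on the strand of the gene, with the searched motifs in capitals.
Lmna (chr3:88503303-88503602, minus strand): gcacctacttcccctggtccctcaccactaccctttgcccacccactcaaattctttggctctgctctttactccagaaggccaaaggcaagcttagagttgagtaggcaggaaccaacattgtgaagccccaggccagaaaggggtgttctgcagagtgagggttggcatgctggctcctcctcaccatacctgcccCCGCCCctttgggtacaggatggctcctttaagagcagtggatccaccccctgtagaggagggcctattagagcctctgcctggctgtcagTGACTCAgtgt
Vim (chr2:13574061-13574360, plus strand): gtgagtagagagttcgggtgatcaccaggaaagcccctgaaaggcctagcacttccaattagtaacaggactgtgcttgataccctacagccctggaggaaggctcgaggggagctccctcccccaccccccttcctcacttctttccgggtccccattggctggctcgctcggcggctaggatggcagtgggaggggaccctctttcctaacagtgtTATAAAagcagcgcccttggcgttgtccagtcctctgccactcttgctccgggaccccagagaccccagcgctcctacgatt
Emd (chrX:74254437-74254736, plus strand): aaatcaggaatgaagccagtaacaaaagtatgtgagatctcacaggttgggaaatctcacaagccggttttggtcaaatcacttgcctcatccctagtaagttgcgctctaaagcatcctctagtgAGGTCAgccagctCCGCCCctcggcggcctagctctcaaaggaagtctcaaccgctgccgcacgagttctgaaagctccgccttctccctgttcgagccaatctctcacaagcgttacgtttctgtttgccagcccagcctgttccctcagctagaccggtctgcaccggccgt
Sun2 (chr15:79742487-79742786, minus strand): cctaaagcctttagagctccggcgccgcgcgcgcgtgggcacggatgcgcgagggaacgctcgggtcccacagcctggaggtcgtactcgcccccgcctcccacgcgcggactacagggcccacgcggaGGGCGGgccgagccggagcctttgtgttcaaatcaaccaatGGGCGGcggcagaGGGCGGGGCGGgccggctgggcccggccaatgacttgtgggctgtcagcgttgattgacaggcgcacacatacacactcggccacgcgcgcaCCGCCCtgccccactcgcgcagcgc

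Motifs were searched on both strands as the AP-1 motif TGANTCA, the cyclic AMP response element TGACGTCA, the GC box GGGCGG, the retinoic acid receptor half-site AGGTCA and the TATA box TATAAA. The Lmna window held an AP-1 match (TGACTCA) that begins at base 40 after the start and a GC box 52 bases before it. The Vim window held a TATA box 32 bases before the start, the Emd window held a GC box and a receptor half-site, and the Sun2 window held 5 GC boxes, of which a pair overlaps. Among 32851 mouse promoters of the same length, 7.81% held the AP-1 motif, 35.7% the GC box, 16.3% the half-site, 13.6% the TATA box and 1.79% the cyclic AMP element. The CpG ratio, observed over that given by the C and G content, was 0.043 in the Lmna window, 0.421 in Vim, 0.715 in Emd and 1.02 in Sun2, with a median of 0.384 over all promoters. The other windows, not printed, were those of Lbr, with a CpG ratio of 1.09 and an AP-1 match (TGATTCA) 48 bases before the start, a further start of Lmna, and 2 each of Lmnb2 and Sun1. A match describes letters in a window and is no evidence that a factor binds there.

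The defining markers of CD4+ Tregs were present in all libraries. Foxp3, the lineage factor, was counted at 452.4 per 1000000 unique molecular identifiers (CPM) in colon 1, 306.1 CPM in colon 2 and 281.9 CPM in spleen, and it had at least 1 molecular identifier (UMI) in 47.5%, 43.9% and 33.2% of the cells in that order. Cd4 had a UMI in 47.3%, 57.6% and 34.4% of cells, while Cd8a had one in at most 0.324% of the cells of any library. Cd8b1, which encodes the other chain of CD8, was counted at 50.3 CPM in colon 1, 41.6 CPM in colon 2 and 63.7 CPM in spleen. The libraries held 1253246 UMIs in colon 1, 3916649 in colon 2 and 1255946 in spleen, with 1767, 2026.5 and 1847 UMIs in the median cell. Libraries shared between 5 and 11 cell barcodes. Ribosomal protein genes took 17.6% and 16.3% of the UMIs in colon 1 and colon 2, and 28.5% in spleen. The labels name no animal, and the titles of colon 2 call it rep2 where its sample type reads colon_tr_rep1b, so colon 1 and colon 2 may be separate captures of 1 sample. Each library is 1 unit, and all intervals are 95% intervals that cover counting error only. The ratios of colon 1 and colon 2 rest on 1 spleen library that they share.

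Of the 8 members, 4 exceeded spleen by 2-fold or more in colon 1 and in colon 2 alike, Lmna, Lmnb1, Emd and Vim, and none was 2-fold lower. Of 3482 genes with at least 50 CPM in spleen or in both colon libraries, 11.7% were 2-fold higher and 4.45% were 2-fold lower by the same rule. Of the members, 6 passed that level filter, Lmna through its colon level alone, while Lmnb2 and Sun1 lay under it. The median over the 8 members of the mean log2 ratio was 0.70, against 0.02 over the 3482 genes. Since the members were picked with this contrast known, nothing is read from the share. When totals left out ribosomal protein genes, the same 2 shares were 7.92% and 7.99%, and 4 members were again 2-fold higher.

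**Figure D1:**
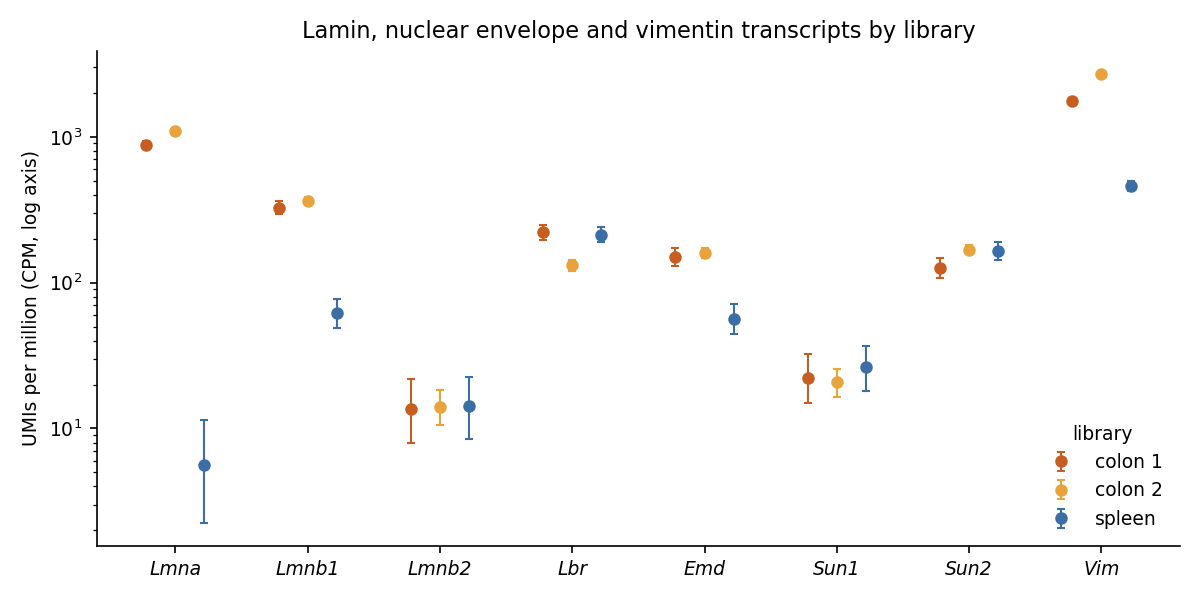
Summed UMIs per 1000000 (CPM, log axis) of the 8 members in colon 1, colon 2 and spleen, with exact Poisson 95% intervals. Lmna lies at 878.5 and 1094.8 CPM in colon 1 and colon 2 and at 5.57 CPM in spleen, while Lmnb2 and Sun1 lie close together in the 3 libraries.

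Lmna, the gene of the A-type lamins, was counted 1101 times in colon 1, 4288 times in colon 2 and 7 times in spleen. This is 878.5 CPM (827.4 to 932) in colon 1, 1094.8 CPM (1062 to 1128) in colon 2, and 5.57 CPM (2.24 to 11.5) in spleen. Both colon libraries were high, spleen was close to absence, and the intervals do not overlap. Colon 1 had a log2 ratio to spleen of 7.30 (6.25 to 8.62), or 157.6-fold, and colon 2 one of 7.62 (6.57 to 8.93), or 196.4-fold. Lmna ranked 2nd in colon 1 and 1st in colon 2 among the ratios of the 3482 genes, with libraries at 0 set to a floor of 3 counts. It is among these genes through its colon level alone and was picked with the contrast known, so the rank is a description. Colon 2 was 1.25-fold above colon 1.

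Lmnb1, the B-type lamin gene (chromosome 18, from 56707813 to 56753424 on the plus strand), was also higher in colon, to a smaller extent. It reached 327.15 CPM (296.2 to 360.4) in colon 1, 364.3 CPM (345.7 to 383.7) in colon 2 and 62.1 CPM (49.1 to 77.5) in spleen. The intervals of the tissues do not overlap, and those of the colon libraries do. Its log2 ratios were 2.40 (2.04 to 2.77) for colon 1, and for colon 2 2.55 (2.22 to 2.90). Lmnb2, the other B-type lamin, was low everywhere, at 13.6, 14.04 and 14.3 CPM in colon 1, colon 2 and spleen, from 17, 55 and 18 UMIs. Its ratios of -0.08 (-1.13 to 0.96) and -0.03 (-0.82 to 0.83) on the log2 scale span 0, with wide counting intervals.

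The lamin genes therefore took different shares of the lamin transcripts in the tissues. Lmna made up 72.1% (69.7 to 74.3) of the UMIs of the 3 lamin genes in colon 1, 74.3% (73.2 to 75.4) in colon 2 and 6.80% (2.78 to 13.5) in spleen. Lmnb1 made up 26.8%, 24.7% and 75.7%, and Lmnb2 1.11%, 0.953% and 17.5%, in the same order. A UMI counts a molecule captured at its poly(A) tail, and differences in capture between genes were not measured, so the shares compare libraries rather than genes. Spleen shares rest on 7, 78 and 18 UMIs of Lmna, Lmnb1 and Lmnb2.

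Emd, the gene of the LEM-domain protein emerin, reached 150 CPM (129.3 to 173.1) in colon 1, 159.1 CPM (146.8 to 172.1) in colon 2 and 56.5 CPM (44.2 to 71.3) in spleen. Colon libraries overlapped with each other and not with spleen, and the log2 ratios were 1.41 (1.01 to 1.82) and 1.49 (1.14 to 1.87). Lbr, whose product binds B-type lamins and heterochromatin, had no common direction. It stood at 221.03 CPM (195.8 to 248.6) in colon 1, 131.5 CPM (120.4 to 143.4) in colon 2 and 213.4 CPM (188.6 to 240.5) in spleen. Colon 1 overlapped with spleen, and colon 2 was lower than both, by -0.70 (-0.91 to -0.48) on the log2 scale against spleen and -0.75 (-0.96 to -0.53) against colon 1.

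The LINC complex subunits were near the spleen level in colon. Sun2 reached 126.1 CPM (107.2 to 147.3) in colon 1, 168.5 CPM (155.9 to 181.9) in colon 2 and 164.8 CPM (143.1 to 188.9) in spleen, with log2 ratios of -0.39 (-0.69 to -0.08) and 0.03 (-0.20 to 0.26). Colon 1 was the lower library, and colon 2 overlapped with spleen. Sun1, its paralog, was rare, at 22.3, 20.7 and 26.3 CPM in colon 1, colon 2 and spleen, with log2 ratios of -0.23 (-1.01 to 0.54) and -0.35 (-0.95 to 0.28). After thinning every cell to 1000 UMIs the mean of both Sun1 ratios was -1.06, where all UMIs gave -0.29.

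Vim was the most counted member in every library. It reached 1761 CPM (1688 to 1836) in colon 1, 2676 CPM (2625 to 2727) in colon 2 and 458.6 CPM (421.9 to 497.6) in spleen. The 3 libraries were apart from each other, with spleen lowest. Against spleen the log2 ratio was 1.94 (1.81 to 2.08) for colon 1 and 2.54 (2.42 to 2.67) for colon 2, and colon 2 was 1.52-fold above colon 1. In the order of the ratios over both colon libraries, Lmna came before Lmnb1, Vim and Emd, where the intervals of Lmnb1 and Vim overlapped in both colon libraries and those of Vim and Emd in colon 1.

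**Figure D2:**
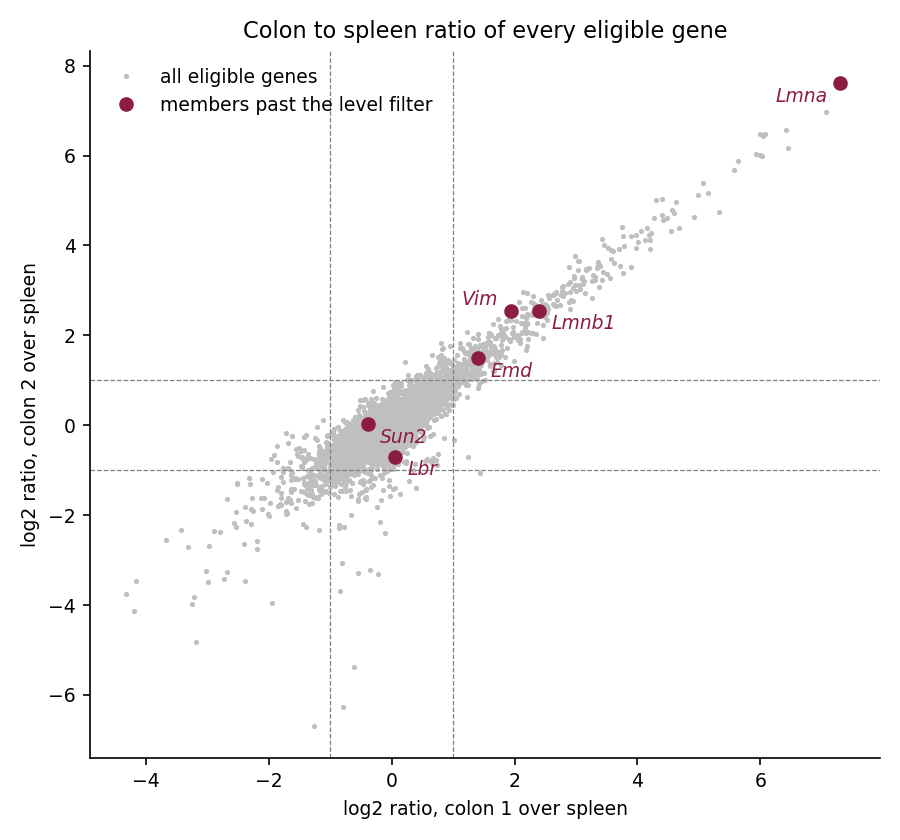
Log2 ratio to spleen in colon 1 (x) and colon 2 (y) for the 3482 eligible genes in grey, with the 6 members past the level filter in dark red and dashed lines at 2-fold. Lmna stands at 7.30 and 7.62, at the far end with 1 other gene hidden behind its point, while Sun2 and Lbr lie among the bulk.

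The transcripts were unevenly spread over cells. Each cell was thinned to 1000 UMIs at random, and 9, 28 and 4 cells of colon 1, colon 2 and spleen with fewer were not used. Lmna then had a UMI in 37.2% (33.4 to 41.2) of the cells of colon 1, 41.8% (39.5 to 44.2) of colon 2 and 0.489% (0.101 to 1.42) of spleen. The unthinned shares were 46.04%, 52.4% and 1.13%. Cd79a, a B cell gene that Tregs should lack, had a UMI in 0.164%, 0.0573% and 0.326% of thinned cells. In thinned spleen cells Cd8a was found in 0.163% and the macrophage gene Lyz2 in none. The spleen intervals of Lmna and Cd79a (0.0395 to 1.17) overlap, so low Lmna and background UMIs cannot be told apart there. The 7 Lmna UMIs of spleen lay in 7 cells with a median of 2838 UMIs, against 1847 in the median spleen cell. Of these cells, 5 held a UMI of S100a4 or Itgb1, 6 of Ikzf2 and 3 of Gata3 or Il1rl1. Among all spleen cells these markers were found in 36.5%, 51.1% and 34.5%. Deeper cells hold marker UMIs more often, so no marker is read from 7 cells.

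In colon, 5.41% of thinned cells of colon 1 and 7.05% of colon 2 held 5 or more Lmna UMIs, and 62.8% and 58.2% held none. The tenth of cells with the most Lmna UMIs carried 53.3% of them in colon 1 and 50.3% in colon 2, and the variance of the thinned count was 3.597 and 3.704 times its mean. A variance equal to the mean would be that of counting alone. Lmnb1 had a UMI in 20%, 22.4% and 3.59% of thinned cells of colon 1, colon 2 and spleen, and Emd in 10.2%, 11.98% and 4.57%. Lbr was found in 11.6%, 9.58% and 12.4% of cells, and Sun2 in 8.69%, 11.3% and 11.1%. Vim was found in 60.3%, 68.5% and 24.3%. Cells with 5 or more Vim UMIs made up 9.51% of colon 1, 21.5% of colon 2 and 0.979% of spleen.

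**Figure D3:**
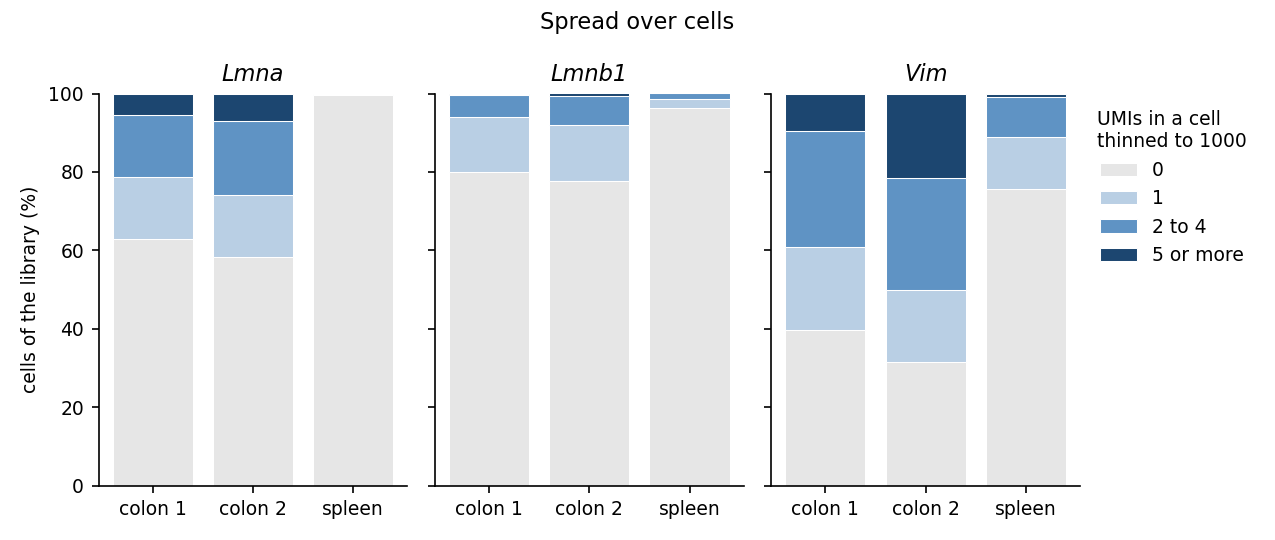
Share of cells (%) with 0, 1, 2 to 4 or 5 or more UMIs of Lmna, Lmnb1 and Vim after thinning every cell to 1000 UMIs, by library. Cells with 5 or more Lmna UMIs are 5.41% of colon 1 and 7.05% of colon 2, and 0 of the spleen cells, for which a floor of 3 counts allows a share of up to 0.489%.

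Among colon cells, Vim was 1 of the genes whose levels ran most with Lmna. By the smaller of the Pearson correlations in the colon libraries (log scale, all cells of each, 1972 genes compared), the 10 highest were the LIM protein gene Crip1 (0.34 in colon 1 and 0.38 in colon 2), Vim (0.29 and 0.41), the scaffold gene Ahnak (0.26 and 0.25), S100a6, S100a4, the AP-1 gene Fosb (0.23 and 0.33), the receptor gene Klrg1, the granzyme gene Gzmb (0.21 and 0.22), the membrane protein gene Myadm and S100a11. All values share the cell's library and depth. After thinning, 8 of the 10 were again among the 10 highest. Vim ran most with S100a6 (0.43 and 0.43), S100a4 (0.40 and 0.41), Crip1, the galectin gene Lgals1 and S100a10, and Lmna came 6th.

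The other nuclear envelope members had correlations with Lmna near 0 over colon cells. Lmnb1 had a correlation with Lmna of 0.06 in colon 1 and 0.04 in colon 2, Emd of 0.00 and -0.03, Lbr of -0.06 and -0.03, and Sun2 of 0.00 and -0.04. In sparse counts such values say little. In colon 1, Vim was found in 52.2% (47.1 to 57.3) of cells with no Lmna UMI, 71.1% (61.05 to 79.9) with 1 and 76.2% (67.9 to 83.2) with 2 or more, all after thinning. In colon 2 these shares were 56.9%, 82.6% and 85.7%. Vim was thus more frequent in cells with Lmna UMIs, while Lmnb1 was found in 19.6%, 16.5% and 23.8% of these cells of colon 1 and in 20.99%, 25.4% and 23.6% of colon 2, with overlapping intervals.

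**Figure D4:**
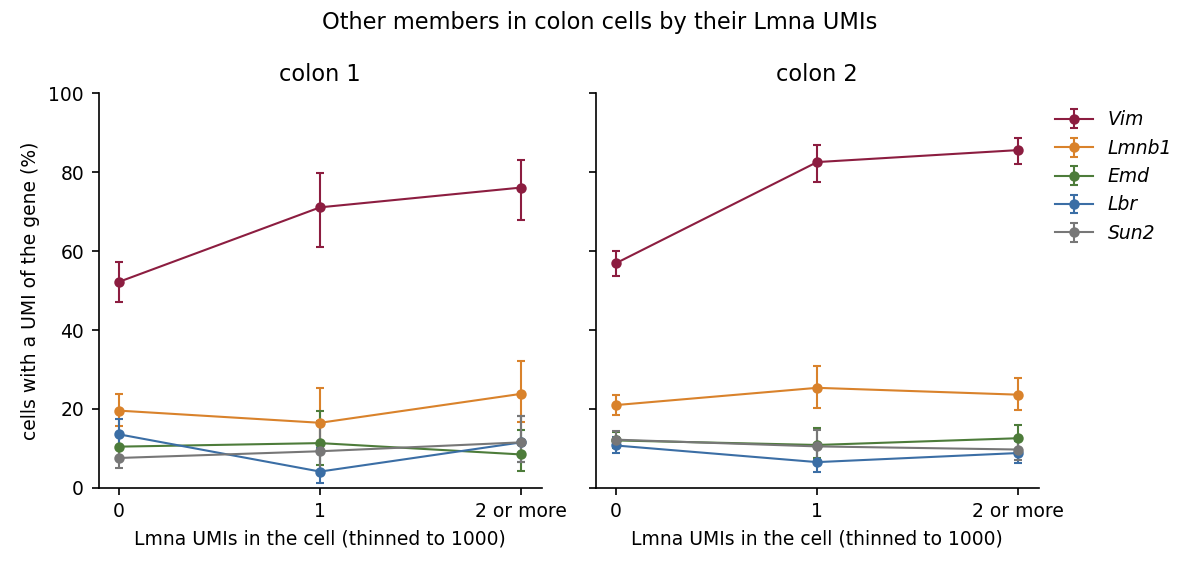
Share of cells (%) with a UMI of Vim, Lmnb1, Emd, Lbr and Sun2 in colon cells with 0, 1 and 2 or more Lmna UMIs, after thinning to 1000 UMIs, with Clopper-Pearson 95% intervals. Vim is higher in cells with Lmna UMIs in both libraries (52.2% to 76.2% in colon 1, 56.9% to 85.7% in colon 2), Lbr is lowest in cells with 1 Lmna UMI in both (4.12% and 6.52%), and Lmnb1, Emd and Sun2 are ordered differently in the colon libraries.

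Cells were next set apart within each library by whether they held a UMI of marker genes. Lmna was lower in colon cells with a UMI of Ccr7, a receptor for homing to lymphoid tissue, or Bcl6, a factor of follicular T cells. Such cells made up 14.5% of colon 1, 14.6% of colon 2 and 18.8% of spleen. Lmna stood at 165.4 CPM in them and 1018.5 CPM in the other cells of colon 1, and at 396.8 CPM in them and 1230.5 CPM in the others of colon 2. The log2 ratios were -2.62 (-3.16 to -2.13) and -1.63 (-1.82 to -1.45). Even so, these cells exceeded spleen cells with the same markers, in which 0 Lmna UMIs were counted. With spleen set to a floor of 3 counts, the excess was 13.98-fold in colon 1 and 33.6-fold in colon 2. Vim was lower in the Ccr7 or Bcl6 cells of colon as well, with log2 ratios of -1.40 in colon 1 and -1.07 in colon 2. In spleen, Vim had 0.19 (-0.10 to 0.47) with all UMIs and -0.08 (-0.68 to 0.47) in thinned cells, both spanning 0. Lmnb1 had ratios of -0.43 and -0.27 in colon, but in thinned cells -0.82 (-1.80 to 0.02) and -0.26 (-0.67 to 0.14), which span 0.

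Effector markers went with higher Lmna and Vim. In cells with a UMI of S100a4 or the integrin gene Itgb1, Lmna reached 957.3 CPM in colon 1 and 1214 CPM in colon 2. Cells without them had 624.1 and 627.4 CPM. The log2 ratios of Lmna were 0.62 and 0.95, and in thinned cells 0.70 (0.43 to 0.98) and 0.61 (0.47 to 0.76). Vim reached 2029.6, 3071 and 686.2 CPM in the marked cells of colon 1, colon 2 and spleen, against 894, 1125.6 and 303.01 CPM in the others. The log2 ratios of Vim were 1.18, 1.45 and 1.18, and in thinned cells 1.02, 1.10 and 1.07. Lmnb1 stood at 107.8 CPM in the marked spleen cells and 30.8 CPM in the rest, with a log2 ratio of 1.81 (1.08 to 2.58) from 55 and 23 UMIs, and at 0.31 (-0.04 to 0.68) and 0.62 (0.41 to 0.84) in colon 1 and colon 2. Marked cells made up 73.3% of colon 1, 77.6% of colon 2 and 36.5% of spleen.

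Within the S100a4 or Itgb1 cells alone, colon remained above spleen for all 4 genes. The Lmna level exceeded spleen 97.7-fold in colon 1 and 123.9-fold in colon 2, with a spleen level of 9.80 CPM from 5 UMIs. Lmnb1 was 3.18-fold and 3.64-fold higher in these cells, against 8.97-fold and 8.26-fold in cells without the markers. Vim was 2.96-fold and 4.48-fold higher, and Emd 2.20-fold and 2.50-fold. A marker UMI depends on the depth of the cell, and marked cells held more UMIs than the others, with medians of 2077 and 1891 in colon 2 and of 1991 and 1770 in spleen.

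Cells were set apart by further markers of Treg states. Over cells without a UMI of Gzmb, cells with one had Lmna log2 ratios of 0.78 (0.60 to 0.97) in colon 1. In colon 2 the ratio was 0.88 (0.78 to 0.97). Thinned cells gave 0.72 (0.48 to 0.97) and 0.72 (0.59 to 0.85). Cells with Gata3 or Il1rl1, which encodes the interleukin-33 receptor ST2, had 0.45 (0.28 to 0.63) and 0.44 (0.36 to 0.53). Their Vim was slightly lower in colon (-0.15 and -0.16), whereas spleen gave 0.20. Thinned spleen cells gave 0.32 (-0.10 to 0.72), which spans 0. Cells with Ikzf2, the gene of Helios, had Lmna ratios of -0.48 and -0.22, but in thinned cells of -0.09 (-0.35 to 0.17) in colon 1 and -0.15 (-0.29 to -0.01) in colon 2. For the regulatory cytokine gene Il10 colon 1 gave a ratio of 0.10 (-0.08 to 0.28) and colon 2 one of 0.53 (0.44 to 0.63). Thinned cells gave -0.13 (-0.37 to 0.11) and 0.31 (0.18 to 0.43), so colon 1 had no direction. For Gzmb and for Gata3 or Il1rl1, Emd and Lbr had no ratio past counting error in the same direction in both colon libraries. Some other markers did. Lbr was higher in Ccr7 or Bcl6 cells, at 0.73 (0.31 to 1.13) in colon 1 and 0.48 (0.16 to 0.79) in colon 2. Thinned cells gave 0.91 (0.22 to 1.56) and 0.65 (0.07 to 1.18). In spleen, Lbr had -0.29 (-0.78 to 0.17) with all UMIs and 0.33 (-0.48 to 1.06) in thinned cells, so spleen had no direction. Emd was lower in Fosb, Hspa1a or Hspa1b cells, at -0.87 (-1.41 to -0.36) and -0.27 (-0.51 to -0.03). In thinned cells of colon 2 its ratio of -0.25 (-0.67 to 0.16) spans 0.

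**Figure D5:**
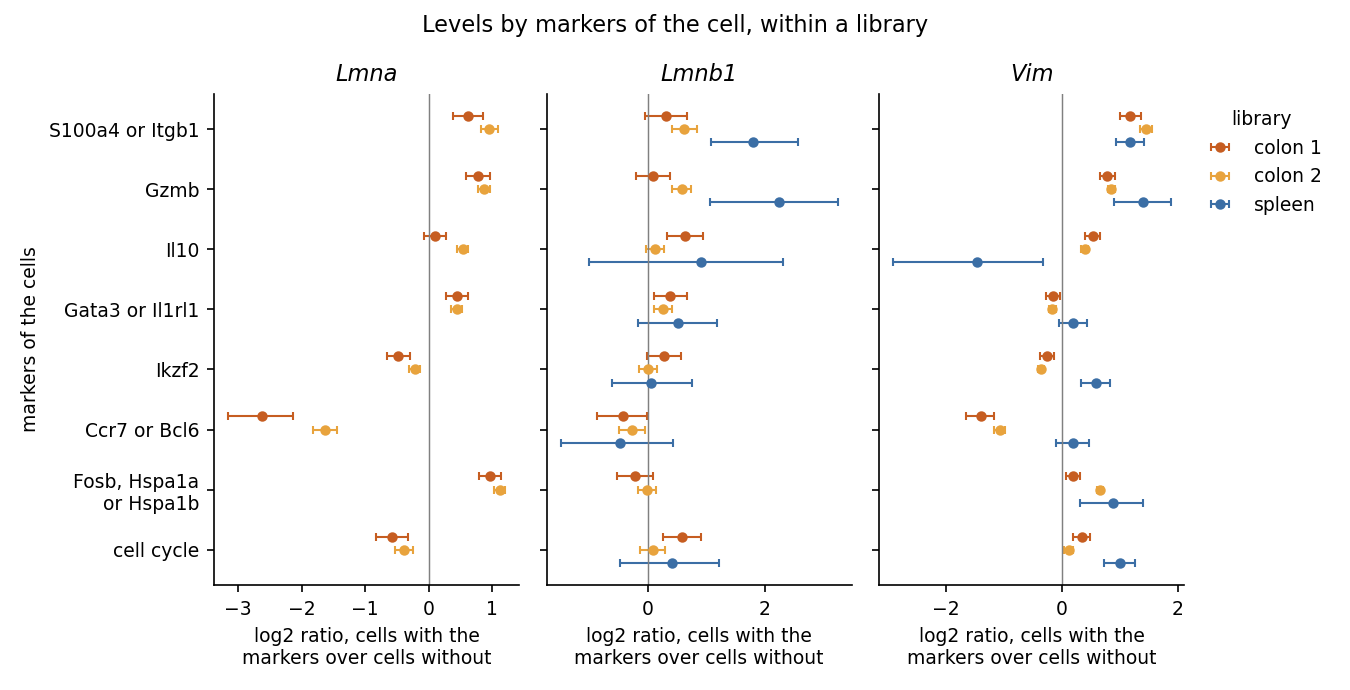
Log2 ratio of Lmna, Lmnb1 and Vim between cells with and without a UMI of the named markers (2 UMIs for cell cycle genes), within colon 1, colon 2 and, for Lmnb1 and Vim, spleen, with exact 95% intervals of counting error (points without UMIs on either side are left out). Lmna is lowest in Ccr7 or Bcl6 cells (-2.62 and -1.63) and highest in Fosb, Hspa1a or Hspa1b cells (0.96 and 1.12).

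Lmna also ran with genes that tissue digestion is known to induce. Cells with a UMI of Fosb, Hspa1a or Hspa1b made up 32.8% of colon 1, 38.1% of colon 2 and 2.27% of spleen. Lmna stood at 1304 CPM in these cells and 668.5 CPM in the others of colon 1, and at 1630 and 750.8 CPM in colon 2. The colon cells without any of these UMIs were 116.3-fold and 130.7-fold above the spleen cells without them (5.75 CPM). These colon cells went through the same digestion, so the split does not separate tissue from digestion. Lmnb1 was at 343.2 and 366.6 CPM in the colon cells without these UMIs and at 64.02 CPM in such spleen cells, and Emd at 176.4, 170.3 and 58.3 CPM.

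Both markings together gave a wide range within colon. Lmna was highest in cells with Gzmb and a digestion gene, at 1558 CPM in colon 1 and 1878 CPM in colon 2. In cells with neither it was 493.1 and 489.1 CPM, which is 88.5-fold and 87.8-fold above the whole spleen library. The lowest level lay in cells with Ccr7 or Bcl6 and no digestion gene, at 108.7 CPM (64.4 to 171.8) from 18 UMIs in colon 1 and 222.8 CPM (181.9 to 270.2) in colon 2. Vim in those cells was 591.7 and 1187.7 CPM, or 1.29-fold and 2.59-fold the spleen level.

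Cells holding 2 UMIs of cell cycle genes had log2 ratios of Lmna of -0.57 (-0.83 to -0.32) in colon 1 and -0.39 (-0.53 to -0.25) in colon 2. In thinned cells these were -0.43 (-1.05 to 0.12) and -0.20 (-0.61 to 0.18), both spanning 0. Lmnb1, whose transcript is known to follow proliferation, gave 0.58 (0.25 to 0.91), 0.08 (-0.14 to 0.30) and 0.41 (-0.49 to 1.22) in colon 1, colon 2 and spleen. The Lmnb1 values changed with the definition of these cells. When Cenpf, which marked most of these spleen cells, was left out of the markers, they were 1.01, 0.36 and 1.02, and after thinning -0.28, 0.65 and -0.998, so no direction is given.

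Markers of other cell types that carry much Lmna or Vim were low. Stromal markers summed to 19.9 CPM in colon 1, 7.66 CPM in colon 2 and 7.96 CPM in spleen over 10 genes, of which 8 had a UMI in colon. Acta2 alone gave 13.6, 2.55 and 4.78 CPM, and Col6a1 and Pdgfrb were at 0 in both colon libraries. Endothelial markers summed to 53.5, 52.9 and 101.9 CPM, nearly all from Pecam1, with 6 of 8 genes at 0 in all libraries, Cdh5, Kdr and Vwf among them. Macrophage or dendritic cell markers summed to 238.6, 236.7 and 107.5 CPM over 12 genes, of which Cst3 alone gave 221.03, 199.15 and 101.9 CPM, while Csf1r and Adgre1 were at 0 in colon. Apoe was at 7.18 and 16.3 CPM in colon 1 and colon 2, C1qa, C1qb, C1qc and Lyz2 were each at 4.596 CPM or less in colon, and all 5 were at 0 in spleen. Epithelial markers summed to 37.5, 65.1 and 58.9 CPM over 10 genes, B or plasma cell markers to 15.96, 12.8 and 13.5 over 8, CD8 or NK cell markers to 50.3, 44.7 and 66.1 over 5 and granulocyte or mast cell markers to 1.60, 4.34 and 0 over 9. Without the cells that held 2 UMIs of any of these lists, Lmna was at 964.6, 1115.8 and 4.82 CPM and Vim at 1706, 2624 and 420 CPM in colon 1, colon 2 and spleen.

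The 2-fold rule was also applied to lists of lamina partners and other parts of the nuclear envelope. These lists were counted over genes with at least 30 UMIs in all libraries together, 9580 in all, of which 10.4% were 2-fold higher and 5.40% 2-fold lower in both colon libraries. The lists are short and many of their genes have few UMIs, so their counts cannot show a shortage against these shares. Of 17 measured partners at the inner nuclear membrane and on chromatin, 0 were higher and 0 lower, with a median log2 ratio of -0.12. The largest ratios in size were those of the membrane protein gene Tmem43 (0.94 in colon 1 and 0.62 in colon 2), of the heterochromatin protein gene Cbx1 (-0.58 and -0.83, from 8, 21 and 12 UMIs) and of the torsin cofactors Tor1aip2 (0.89 and 0.48) and Tor1aip1 (0.49 and 0.81). Of 12 ESCRT and envelope repair genes, none passed 2-fold in both libraries either. Among 3 measured LINC partners only Syne2, the gene of nesprin-2, was called lower, from 5, 14 and 12 UMIs in colon 1, colon 2 and spleen, while the nesprin-1 gene Syne1 had ratios of 0.03 and -0.27. Syne3, the gene of nesprin-3, was at 0 in spleen and had 5 and 32 UMIs in colon 1 and colon 2. With spleen set to a floor of 3 counts, Syne3 was 1.67-fold higher in colon 1 and 3.42-fold higher in colon 2. The lower limits of its log2 ratios were -0.12 in colon 1, under 0, and 1.39 in colon 2.

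Of 7 measured genes for the maturation of prelamin A, 0 were 2-fold higher, with a median log2 ratio of 0.41, and 1 was lower, the farnesyltransferase subunit gene Fntb, with 3, 25 and 23 UMIs in colon 1, colon 2 and spleen. The protease gene Zmpste24, which cleaves prelamin A, had log2 ratios of 0.59 (0.04 to 1.15) and 0.46 (0.00 to 0.95), with intervals just above 0, and the methyltransferase gene Icmt 0.65 (-0.32 to 1.65) and 0.72 (-0.07 to 1.59). Of 25 nuclear pore genes, 1 was higher (Nup98, from 20, 46 and 1 UMIs) and 1 lower (Nup155, from 2, 27 and 25 UMIs). Of 17 nuclear transport genes, the importin genes Kpna1 (2.38 and 2.53) and Kpna2 (1.12 and 1.78) were higher and none was lower.

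Among cytoskeletal and signalling lists linked to lamins, single genes stood out. Of 4 measured intermediate filament or linker genes, Dst (1.003 and 1.51) and Dsp were higher. Dsp was at 0 UMIs in spleen and had 17 and 25 UMIs in colon 1 and colon 2. With spleen set to a floor of 3 counts, Dsp was 5.68-fold and 2.67-fold higher. The lower limits of its log2 ratios were 2.05 and 1.01. Plec, which links filaments to the LINC complex, had ratios of -0.47 and 0.56. A further list held the actin-regulated MRTF-SRF and YAP factors and their targets. Of its 11 measured genes, 4 were higher and 0 lower. The higher genes were Tagln2 (1.79 and 1.67), Tpm4 (1.59 and 1.85), Tpm1 (1.24 and 1.27) and Ctgf, from 31, 73 and 1 UMIs in 9, 32 and 1 cells. Of 7 retinoic acid and gut imprinting genes, the receptor genes Ccr9 (2.88 and 3.52) and Rxra (1.68 and 1.53) were higher, and Rarg (-2.55 and -2.80) was lower.

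The lists with the highest medians were those of activation and of digestion. Lists were chosen with earlier results of these data known, so nothing is read from their counts or medians. Of all 9580 genes with at least 30 UMIs, 10.4% were 2-fold higher and 5.40% 2-fold lower. Of 17 activated effector Treg genes, 15 were 2-fold higher and 0 lower, with a median of 2.46, Gzmb (5.998 and 6.005) and Il10 (4.98 and 5.12) ahead. Of 18 digestion and heat-shock genes, 8 were higher and 1 lower, with a median of 1.07. With spleen, at 0, set to a floor of 3 counts, Hspa1a was 49.8-fold higher in colon 1 and 59.003-fold higher in colon 2. Fosb had log2 ratios of 4.49 and 4.61. The part of either in the colon level of Lmna was not tested.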

How the data were processed

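Single sorted Tregs were sequenced by inDrops, in which cells are captured in droplets with barcoded oligo-dT primers. The deposited table holds raw counts of unique molecular identifiers (UMIs) per gene and cell, with no normalization by the authors evident in its whole-number values. TopHat2, SAMtools and the mm10 build are named per the submitters' processing notes. Settings, annotation, UMI collapsing and cell selection: not given in the sources used here. No doublets were removed here.

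UMIs were summed per library and scaled to 1000000 (CPM). Ratios have exact conditional binomial, levels exact Poisson and shares Clopper-Pearson 95% intervals, and PCR and capture add error that these do not cover. A library at 0 was set to 3 counts. Cells without 1000 UMIs were left out of thinned shares. The ratio and thinning steps were tested on simulated data. No test was run, since each library is 1 unit, and no column of the table was left out.

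The named genes are the 8 members, up to 4 genes of each list by size of the mean log2 ratio, the 10 genes most correlated with Lmna and 5 with Vim (UMIs in 10% of cells of both colon libraries), and the marker genes. Members and lists were chosen with earlier results of these data known. Alternatives were edgeR 4.0.16 TMM scaling, scaling by the median of ratios, a total free of ribosomal protein genes, equal weight per cell, thinning, leaving out cells with other cell type or digestion markers, leaving out a colon library, no level filter and a 4-fold threshold. Python 3.11.15, numpy 2.4.6, scipy 1.17.1, pandas 2.3.3, matplotlib 3.10.9 and R 4.3.3 were used.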

Additional observations from a re-analysis of the deposited data

How the results depend on the processing

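The ratios of the 8 members under the alternatives were set against the span from the lowest to the highest limit of both colon intervals. Of 80 values, 79 lay within that span, Sun1 after thinning (-1.06) being the exception. For Vim and Lbr the colon intervals are apart, so the span includes values that lie in neither. A value without a colon library is the ratio of the other one and lies in the span by construction. None of the 4 ratios past 2-fold changed sign, while Lbr (-0.32) was 0.05 without colon 2 and Sun2 (-0.18) was 0.03 without colon 1. Lmna ranged from 6.95 to 7.82 on the log2 scale, Lmnb1 from 2.26 to 2.67, Emd from 1.23 to 1.62 and Vim from 1.94 to 2.54. At a 4-fold threshold 2 members were higher, where 4 were at 2-fold. Of the eligible genes, 11.7% were higher in colon as reported, 4.82% at 4-fold, 7.92% with totals free of ribosomal protein genes, and 13.1% without colon 2 and 15.3% without colon 1. For genes lower in colon the share was 4.45% as reported, 0.689% at 4-fold, 7.99% with totals free of ribosomal protein genes, and 6.67% without colon 2 and 7.36% without colon 1. Totals free of ribosomal protein genes moved the median of all genes by -0.26 (log2). Of 39 values between marked and other cells under another definition of the cells, 22 stayed within counting error. No paired analysis was possible because each library is 1 unit and no number in the labels pairs colon with spleen. The alternatives without Cenpf and with stricter markers of other cell types were chosen after seeing the data. Depth limits Lmnb2, Sun1 and Lmna in spleen, which rest on 18, 33 and 7 spleen UMIs.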
